A study of Mus musculus with 4 samples.

Results

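The solute carrier genes are the genes whose platform symbol begins with Slc, a family number and a letter. On the bead arrays described here 178 named genes matched that pattern, and Slc6a3, Slc1a2, Slc6a11 and Slc35f3 were set aside, which left 174 genes with 225 probes, of 8980 named genes with 12484 named probes. The 4 genes set aside match the pattern too and stood at least 4.78-fold from Control with both factors, so counts over the 174 genes leave out some of the widest differences. Apart from these 4, the symbol decides membership. The arrays hold cultured neural precursor cells from the cortex of ICR mouse embryos at embryonic day 12, expanded in serum-free N2 medium with ascorbic acid, B27 and the growth factors bFGF and EGF. Proliferating cultures were given retrovirus for 2 hours: the empty pCL vector (Control), Nurr1, Foxa2, or Nurr1 together with Foxa2. All groups then spent 2 days without the growth factors before total RNA was taken. Nurr1 and Foxa2 are transcription factors, Nurr1 of the nuclear receptor class and Foxa2 of the forkhead class, and the series concerns their synergy in developing dopamine neurons. A retrovirus of this kind enters dividing cells, and the share of cells that took it up is not given in the sources used here. Each group has 1 array, so no difference below has a replicate check, no p-value is given, and every count describes these 4 arrays.

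Solute carriers are membrane proteins that move small molecules: metal ions, amino acids, sugars, transmitters, inorganic ions, vitamins, lipids and the metabolites that cross the inner mitochondrial membrane. The number in a symbol names a family of related sequence, and members of a family often carry related substrates. In brain tissue, glia are known for the carriers that clear glutamate, glycine and GABA and that hand glutamine back to neurons, while neurons carry the vesicular transmitter carriers.

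Median deposited signals over all 25697 probes lay between 134 and 149 on the 4 arrays, and 42.7% to 44.6% of probes were detected (detection p-value under 0.01). Of the solute carrier genes 145, 146, 146 and 148 were detected on the Control, Nurr1, Foxa2 and double arrays. All 4 arrays detected 133 of them, 27 were detected on 1 to 3 arrays and 14 on none. Those 14 were Slc16a10, Slc20a1, Slc25a32, Slc26a2, Slc2a10, Slc35f6, Slc36a1, Slc38a1, Slc39a5, Slc43a2, Slc45a2, Slc4a4, Slc6a19 and Slc7a2, and no difference is given for them. Below, signals stand in the order Control, Nurr1, Foxa2 and both factors, and are the deposited values before any correction. Folds come from background-corrected, quantile-normalized values, so they differ from the ratios of the signals. A fold against an array that did not detect the gene is a bound and is written "at least". The transcript of Nr4a2, which encodes Nurr1, had signals of 167, 1669, 216 and 1620.4, so it was high on the arrays labelled with Nurr1. Foxa2 has no named probe and was not analysed here.

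In the tissue check, progenitor markers were detected on every array (4 of 4 with a named probe), with summed signals of 12253, 7658, 11904 and 5268. The astrocyte list (4 of 6 named) was also detected throughout, with sums of 30345, 37089, 28337 and 21906. Most of the Nurr1 sum was Gja1, with a signal of 29802 there and 13956 on the Control array. Aqp4, Aldh1l1 and Aldoc were at least 2-fold lower with Nurr1 and with both factors, and Gja1 was at least 2-fold higher with Nurr1. Hes5 was at least 2-fold lower with Nurr1, and 3 of the 4 progenitor markers were so with both factors. Of 5 neuronal markers 3 were at least 2-fold higher with Nurr1, and the sums were 10762, 14285, 12976 and 10687. Oligodendrocyte lineage markers (7 of 9 named) had sums of 79556, 63355, 51321 and 33739.7, most of it Olig1, and 1, 3 and 5 of them were at least 2-fold lower with Nurr1, Foxa2 and both. Gpr17, Cnp and Olig2 stood at -2.98, -2.60 and -2.17 in log2 with both factors. Mbp of the same list went the other way, with signals of 134, 161, 276 and 179. It was detected with Foxa2 and with both factors only, and was at least 0.865 in log2 higher with Foxa2. The microglial Aif1 and the endothelial Kdr, the named marker of each list, were not detected on any array. Of 4 named pericyte and meningeal fibroblast markers, Dcn and Foxc1 were detected on both arrays with Nurr1 and on neither other array, and Col1a1 and Lum on none, with sums of 438, 783, 466 and 1000.2. Ttr, the named choroid plexus marker, had signals of 274, 397, 202 and 544 and stood at -1.06 in log2 with Foxa2. Whole cultures were measured, so fewer cells of a type and less RNA per cell cannot be told apart, and the part that the mixture of cells plays in the values below was not tested.

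Most solute carrier genes were not counted as 2-fold different in any comparison, and these include the 14 genes detected on no array. In any of the 5 comparisons examined, 21 of 174 were at least 2-fold higher (12.1%, background over all named genes 10.4%) and 22 at least 2-fold lower (12.6%, background 7.29%). In either direction these were 39 genes (22.4%), beside 1438 of 8980 named genes (16%). With Nurr1 against Control, 7 were higher (4.02%, background 3.85%) and 12 were lower (6.90%, background 2.46%). With Foxa2, 3 were higher (1.72%, background 3.11%) and 3 were lower (1.72%, background 1.30%). With both factors, 11 were higher (6.32%, background 6.30%) and 13 were lower (7.47%, background 4.24%). The share of higher genes thus lay near the background with Nurr1 and with both factors, and the share of lower genes lay above it. Scaling the arrays to equal medians split the Foxa2 genes into 6 higher and 2 lower in place of 3 and 3. The split was 3 and 1 in the authors' own values and when no background was taken off.

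The median log2 difference over all 174 genes was -0.04 with Nurr1, 0.00 with Foxa2 and 0.00 with both factors, where genes given no difference entered as 0 and bounds at their bound. The same medians over all named genes were 0.00, 0.00 and -0.01. Of the solute carrier genes 56 lay above Control and 95 below it with Nurr1, 64 and 83 with Foxa2, and 67 and 84 with both, bounds included. Over all named genes 3547 lay above and 4242 below with Nurr1, 3509 and 4269 with Foxa2, and 3325 and 4570 with both. Different probes of the same gene give the only error that these arrays allow. Where a solute carrier gene had 2 or more detected probes, their log2 differences from Control spread with an SD of 0.18 for Nurr1 (32 genes), 0.14 for Foxa2 (33 genes) and 0.23 for both factors (32 genes). A 2-fold difference is 1 on this scale. That spread leaves out differences between cultures and virus preparations.

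**Figure D1:**
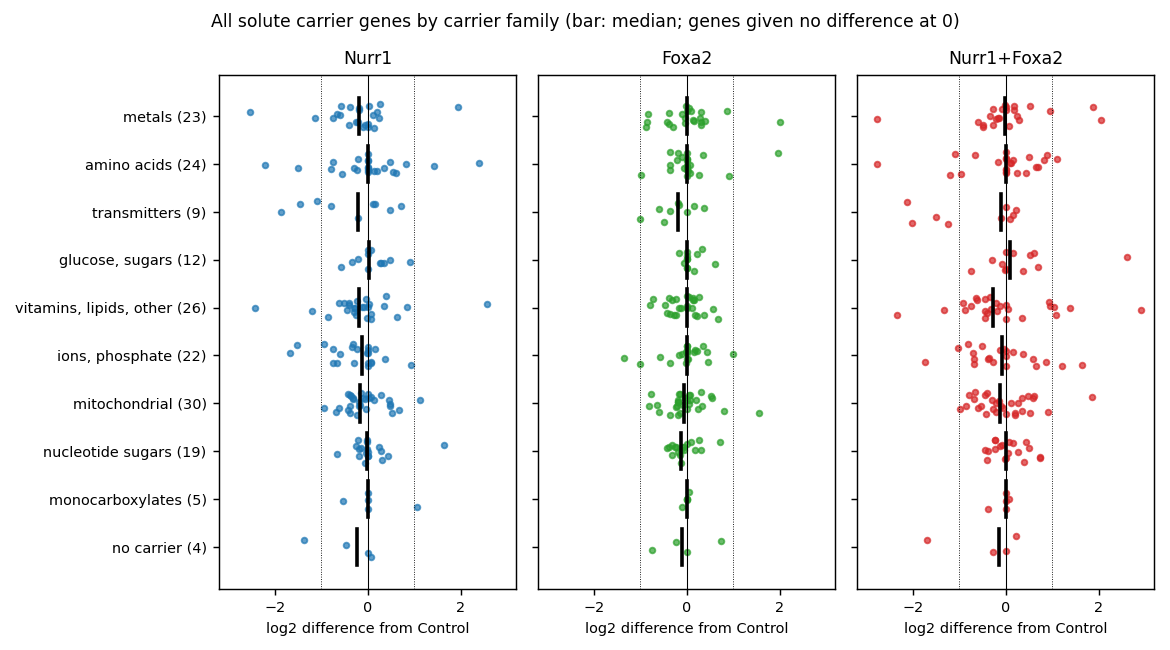
Log2 difference from the Control array for each of the 174 solute carrier genes, by carrier family (number of genes in brackets), with Nurr1, Foxa2 and both factors in separate panels. Points are genes, black bars are family medians, dotted lines mark 2-fold, bounds stand at their bound and genes given no difference at 0; no family median lies further from 0 than -0.27.

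Metal carriers numbered 23, of which 18 were detected on all arrays and 4 were at least 2-fold different in any comparison (17.4%, beside 16% of all named genes). Slc30a10, the exporter that removes manganese from cells, had signals of 874, 228, 842 and 229. Both arrays with Nurr1 were low and both arrays without it were high. Slc30a10 was 5.81-fold lower with Nurr1, 6.86-fold lower with both factors, and 1.23-fold lower with Foxa2 alone. When no background was taken off, the value with both factors was -2.17 on the log2 scale in place of -2.78. Slc31a1, the high-affinity copper importer, showed the opposite order, with signals of 2234, 8805, 3099.7 and 10144. It was 3.85-fold higher with Nurr1 and 4.16-fold higher with both factors, against 1.23-fold with Foxa2. Slc41a2, a magnesium carrier, followed the arrays with Foxa2 in its signals of 208, 246, 721 and 658. The Foxa2 array was 4.0-fold above Control and the array with both factors 3.65-fold, while the Nurr1 array was 1.14-fold above it.

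Of the 18 metal carriers detected on all arrays, 15 stayed within 2-fold of Control. Slc41a3, a second magnesium carrier gene, was not detected with Nurr1, and its signals of 242, 149, 199 and 236 put it at least 2.19-fold lower there. Its other probe was at least 1.5-fold lower with Nurr1, and with both factors the 2 probes lay on opposite sides of Control. The Slc41a3 bound was not followed through the other processing settings. The zinc importer gene Slc39a12 had signals of 304, 249, 596 and 362, and was 1.83-fold higher with Foxa2 and 1.5-fold lower with Nurr1. Among genes of iron handling, the importer gene Slc11a2 had signals of 395, 416, 462 and 520.1. The exporter gene Slc40a1, with signals of 169.6, 109.9, 219 and 137, was detected on the Control and Foxa2 arrays only, and was at least 1.49-fold lower with both factors than with Foxa2. Slc31a2, a relative of the copper importer, was not detected with Foxa2, where it was at least 1.83-fold lower at signals of 209.8, 218, 167 and 207. Among zinc carriers, Slc39a6 had signals of 3373, 4202, 4922 and 4431 and Slc39a7 of 3522, 3262, 4359.8 and 4769. The median log2 difference of the metal family was -0.18 with Nurr1, 0.00 with Foxa2 and -0.03 with both.

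Slc30a10 is shown here with its promoter, beside those of Slc27a3 and Slc2a13, since these genes had the widest ranges over the 4 arrays among members with exactly 1 promoter window in RefSeq (GRCm38.p6) that could be shown. They stand for different patterns: low with Nurr1, high with Nurr1, and high with both factors. Each window runs 5′ to 3′ on the strand of the gene, from 250 bases before to 50 bases after its start. Capitals mark letters that match a searched motif. The motifs, on both strands, were the Nurr1 monomer element AAAGGTCA, the forkhead cores TGTTTAC and TGTTTGC, and the metal response cores TGCACNC and TGCGCNC.
Slc30a10, chr1:185454598-185454897, plus strand: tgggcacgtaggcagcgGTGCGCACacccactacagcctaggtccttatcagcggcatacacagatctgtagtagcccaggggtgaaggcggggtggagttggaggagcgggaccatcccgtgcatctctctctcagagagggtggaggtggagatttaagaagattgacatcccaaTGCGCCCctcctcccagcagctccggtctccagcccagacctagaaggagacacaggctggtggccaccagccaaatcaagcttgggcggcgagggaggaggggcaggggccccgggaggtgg
Slc27a3, chr3:90389889-90390188, minus strand: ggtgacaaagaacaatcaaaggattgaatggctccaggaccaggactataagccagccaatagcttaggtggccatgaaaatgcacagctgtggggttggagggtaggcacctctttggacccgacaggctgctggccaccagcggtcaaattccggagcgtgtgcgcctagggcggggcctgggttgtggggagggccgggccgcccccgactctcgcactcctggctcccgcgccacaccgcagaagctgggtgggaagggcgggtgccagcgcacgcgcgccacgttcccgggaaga
Slc2a13, chr15:91573212-91573511, minus strand: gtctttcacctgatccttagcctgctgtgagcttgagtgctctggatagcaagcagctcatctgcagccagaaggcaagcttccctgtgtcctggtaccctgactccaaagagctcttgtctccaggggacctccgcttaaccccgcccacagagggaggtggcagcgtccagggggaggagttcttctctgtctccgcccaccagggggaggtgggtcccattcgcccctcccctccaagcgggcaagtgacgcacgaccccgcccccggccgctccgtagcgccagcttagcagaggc

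The Slc30a10 window held 3 matches to TGCGCNC. They begin at positions -233 on the minus strand, and -232 and -73 on the plus strand, and the first 2 overlap. No motif was matched in the Slc27a3 and Slc2a13 windows. Over all 32851 windows in the table the shares were 15.4% for TGCGCNC, 12.6% for TGCACNC, 1.51% for AAAGGTCA, 3.65% for TGTTTAC and 5.07% for TGTTTGC. Of 186 windows of 139 solute carrier genes, 44 held TGCGCNC, 30 TGCACNC, 1 AAAGGTCA, 1 TGTTTAC and 3 TGTTTGC. Neither the 7 windows of genes at least 2-fold higher with Nurr1 nor the 15 of lower genes held AAAGGTCA or a forkhead core. With shares of 1.51% to 5.07% over all windows, so few windows cannot show whether these motifs were scarce. TGCGCNC was held by 2 of the 7 and 5 of the 15, and TGCACNC by 0 and 3. These matches describe letters in a short window only.

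**Figure D2:**
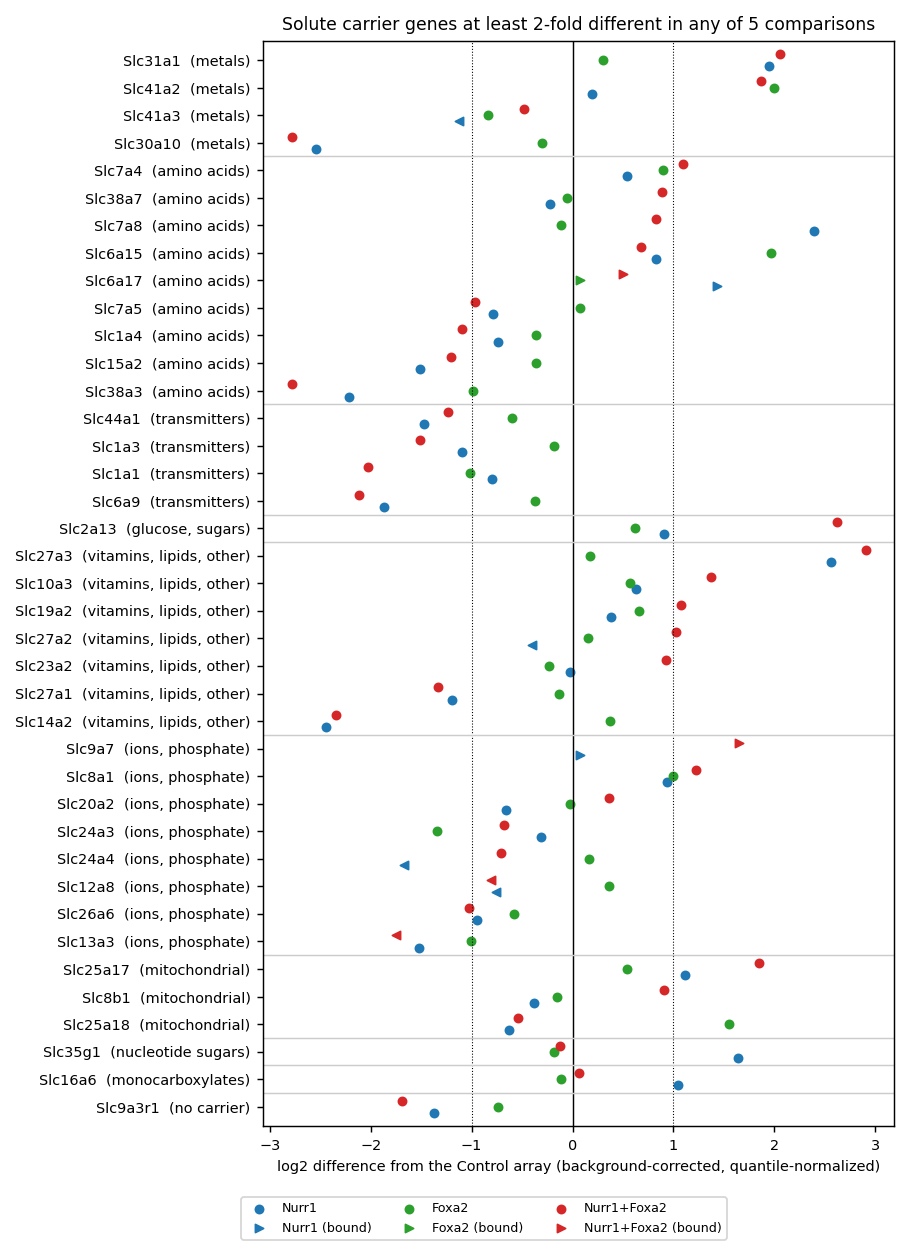
Log2 difference from the Control array for the 39 solute carrier genes at least 2-fold different in any of 5 comparisons, grouped by family. Circles are measured differences and triangles are bounds that point away from 0, dotted lines mark 2-fold; 2 of the 5 comparisons (both factors against each factor alone) are not drawn, so some genes lie inside the lines.

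Carriers of amino acids and peptides numbered 24, of which 15 were detected on all arrays, 5 on none, and 9 were at least 2-fold different in any comparison (37.5%, beside 16% of all named genes). Slc38a3, a glutamine carrier known from astrocytes, had signals of 967, 287, 612 and 244. Both arrays with Nurr1 were lowest and the Foxa2 array lay between them and Control. Slc38a3 was 4.65-fold lower with Nurr1, 1.99-fold lower with Foxa2 and 6.87-fold lower with both. The peptide carrier gene Slc15a2, with signals of 1380.3, 562, 1253 and 735, was 2.85-fold lower with Nurr1 and 2.30-fold lower with both. Slc1a4, a carrier of serine and alanine, had signals of 2473, 1582, 2195 and 1346 and was 2.14-fold lower with both factors. Slc7a5, the large neutral amino acid carrier LAT1, had signals of 3759.9, 2330.4, 4441 and 2206 and was 2.06-fold lower with both factors than with Foxa2. These genes had lower values on each array with Nurr1 than on either array without it.

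Other amino acid carriers were higher with a single factor than with both. Slc7a8, the related carrier LAT2, had signals of 213, 868, 241 and 383. It was 5.26-fold higher with Nurr1 than with the empty virus, but 1.78-fold higher with both factors, which is 2.96-fold lower than with Nurr1 alone. Slc6a15, a neutral amino acid carrier of neurons, was high on the Foxa2 array in signals of 309.8, 536, 1177 and 541. The Foxa2 array was 3.90-fold above Control, the Nurr1 array 1.77-fold and the array with both 1.60-fold. Slc6a17, a synaptic vesicle carrier of neutral amino acids, was not detected with the empty virus (signals of 149, 334, 195 and 238) and was at least 2.69-fold higher with Nurr1. That bound was 0.92 on the log2 scale, under 2-fold, in the authors' own values and when no background was taken off.

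Slc38a7, a lysosomal glutamine carrier, had signals of 671, 627, 767 and 1355 and was 2.16-fold higher with both factors than with Nurr1. Slc7a4, of the cationic amino acid carrier family, had signals of 221, 314, 413 and 462 and was 2.13-fold higher with both factors, a value under 2-fold in the authors' own values (0.81 in log2), with no background taken off (0.80) and with an offset of 50 (0.95). Slc38a2, a glutamine and alanine carrier, had signals of 4303, 6851, 4758 and 6450.1 and stayed within 2-fold of Control. The taurine carrier gene Slc6a6 (signals of 3109.7, 4158, 4175 and 5461) and the creatine carrier gene Slc6a8 (signals of 1734, 1991, 1729.6 and 2092) also stayed within 2-fold. As a family the amino acid carriers had a median log2 difference of 0.00 in each contrast with Control, where genes given no difference entered as 0. Of the 24 genes 9 lay above Control and 8 below it with Nurr1, 7 and 9 with Foxa2, and 11 and 6 with both.

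Carriers of transmitters and choline were few, 9 in all, and 4 of them were at least 2-fold different (44.4%, beside 16% of all named genes), each to the lower side of Control. Slc6a9, the glycine carrier GlyT1 that clears glycine from the extracellular space, had signals of 2828, 873, 2498 and 808. It was 3.64-fold lower with Nurr1 and 4.34-fold lower with both factors, against 1.29-fold with Foxa2. Slc1a3, the glutamate carrier GLAST of radial glia and astrocytes, had signals of 60636, 26664, 48858 and 21127. It was 2.13-fold lower with Nurr1, 1.14-fold lower with Foxa2 and 2.85-fold lower with both. The Control signal stood near the highest of any probe on that array (64772), and whether the scale was saturated there was not tested. The choline carrier gene Slc44a1, with signals of 874, 386, 702 and 483, was 2.77-fold lower with Nurr1 and 2.36-fold lower with both, and its other probe was 1.85-fold and 2.16-fold lower.

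Slc1a1, the glutamate and cysteine carrier EAAC1, known mainly from neurons, was lower on each array with a factor and lowest with both. Its signals were 4849, 2928, 2727 and 1394. It was 1.74-fold lower with Nurr1, 2.02-fold lower with Foxa2 and 4.07-fold lower with both. The Foxa2 value was just under 2-fold when no background was taken off (-0.99 in log2) and in the authors' own values (-0.9963). A dimmer probe of the same gene gave 2.12-fold, 2.80-fold and 5.21-fold, in that order. The vesicular glutamate carrier gene Slc17a6 had signals of 296, 421, 277 and 403 and the vesicular GABA and glycine carrier gene Slc32a1 of 255, 305, 280.3 and 323, both within 2-fold of Control. Slc29a4, a monoamine carrier of the plasma membrane, had signals of 2234, 3798, 3219 and 2758 and was 1.64-fold higher with Nurr1. Of the transmitter carriers set aside, the GABA carrier gene Slc6a11 had signals of 1693, 379.6, 1331 and 373 and the glutamate carrier gene Slc1a2 of 733, 437, 400.5 and 255, and the dopamine carrier gene Slc6a3, with 117, 171, 114 and 2023, was detected on the Nurr1 array and the array with both.

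Glucose and sugar carriers numbered 12, and 1 of them was at least 2-fold different (8.33%, beside 16% of all named genes). Slc2a13, the proton-coupled myo-inositol carrier, had signals of 1647, 3173, 2808 and 10798. Each factor alone lay above Control and the array with both stood far above all others. Slc2a13 was 1.88-fold higher with Nurr1, 1.53-fold with Foxa2 and 6.13-fold with both, and the last exceeded the Nurr1 array by 3.27-fold and the Foxa2 array by 4.0-fold. Among the carriers of glucose itself, Slc2a8, known as GLUT8, had signals of 315, 398, 450.2 and 555, also highest with both factors, and was 1.21-fold, 1.25-fold and 1.62-fold higher with Nurr1, Foxa2 and both. Slc2a1, the general glucose carrier GLUT1, had signals of 1477, 1079.7, 1854 and 1653 and was 1.48-fold lower with Nurr1. Slc2a3, the neuronal glucose carrier GLUT3, had signals of 706, 938, 841 and 778, and Slc2a4, the insulin-responsive GLUT4, of 122, 169, 124 and 249.5, detected on the arrays with Nurr1 only and 1.67-fold higher with both factors than with Nurr1. The glucose carrier gene Slc2a6 had signals of 385, 349, 418 and 315 and was 1.68-fold lower with both factors. Of the 8 sugar carriers detected on all arrays, 7 stayed within 2-fold of Control, and the family medians of the log2 difference were 0.03, 0.00 and 0.08.

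**Figure D3:**
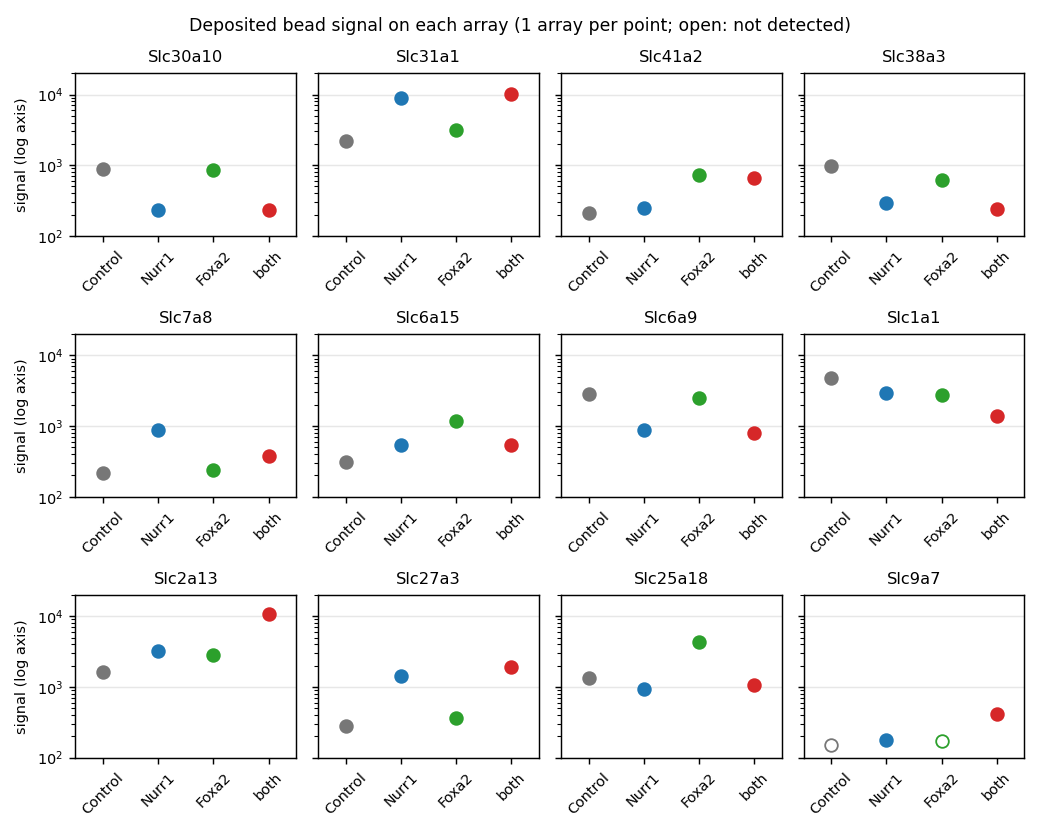
Deposited bead signal (log axis) on each of the 4 arrays for 12 solute carrier genes, 1 array per point, with open circles where the probe was not detected. Slc30a10, Slc38a3 and Slc6a9 are low and Slc31a1 and Slc27a3 high on both arrays with Nurr1, Slc41a2 is high on both arrays with Foxa2, and Slc2a13 and Slc9a7 are highest with both factors.

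Fatty acid, vitamin and other organic carriers (26 genes) included the member with the widest range of all, and 7 were at least 2-fold different (26.9%, beside 16% of all named genes). Slc27a3, which belongs to the fatty acid transport proteins and activates fatty acids with coenzyme A, had signals of 281, 1416, 368 and 1886. It was 5.92-fold higher with Nurr1 and 7.49-fold higher with both, against 1.12-fold with Foxa2. Its relative Slc27a1 went the other way, with signals of 2418, 1151, 2494 and 1126, 2.30-fold lower with Nurr1 and 2.52-fold lower with both. The family member Slc27a2 was near the detection limit at 181, 165, 222 and 339 and 2.04-fold higher with both factors, a value under 2-fold without background correction (0.67 in log2). Members of this family thus pointed in different directions.

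Slc14a2, a urea carrier known mainly from kidney, had signals of 2837, 616, 4114 and 705 and was 5.43-fold lower with Nurr1 and 5.08-fold lower with both. A second probe gave 5.09-fold and 4.67-fold. The ascorbate carrier gene Slc23a2, in cells whose medium was supplemented with ascorbic acid, had signals of 278, 303, 296 and 554 and was 2.24-fold higher with both factors than with Foxa2. That fold was not followed through the other processing settings. Slc19a2, a thiamine carrier, had signals of 647, 876, 1142 and 1472 and was 2.11-fold above Control with both, which was 0.98 in log2 with no background taken off and 0.97 in the authors' own values, under 2-fold. Slc10a3, with signals of 218, 322, 341 and 529, was 2.60-fold higher with both, and each factor alone lay between Control and both. Slc22a17 stayed within 2-fold at 4301, 3159, 2967 and 3553. The family had medians of -0.18, 0.00 and -0.27 on the log2 scale for Nurr1, Foxa2 and both.

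Carriers of inorganic ions and of dicarboxylates numbered 22, of which 12 were detected on all arrays and 8 were at least 2-fold different in any comparison (36.4%, beside 16% of all named genes). Slc24a3, an exchanger of sodium against calcium and potassium, was lowest on the Foxa2 array at signals of 7954, 6454, 3429.7 and 5394, 2.54-fold below Control. Its relative Slc24a4, with signals of 318, 163, 415 and 272, was not detected with Nurr1 and at least 3.19-fold lower there, a bound of -1.67 in log2 that became -1.06 with no background taken off. Slc8a1, the sodium-calcium exchanger of the plasma membrane, had signals of 765, 1499, 1688 and 1930.0, and was 1.91-fold, 1.99-fold and 2.33-fold higher with Nurr1, Foxa2 and both. The Foxa2 value lay just under the 2-fold limit, as those of Slc13a3 and Slc1a1 lay just over it. The calcium exchangers of this family thus pointed in different directions.

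Slc9a7, a sodium-proton exchanger of the Golgi, was detected on the Nurr1 array and on that with both factors, with signals of 150.3, 180.1, 171 and 413. It was at least 3.13-fold higher with both than with the empty virus and 2.97-fold higher than with Nurr1. Slc13a3, a sodium-coupled dicarboxylate carrier, had signals of 324, 176, 236 and 176 and was 2.87-fold lower with Nurr1, 2.02-fold lower with Foxa2 and at least 3.36-fold lower with both. Without background correction the Nurr1 and Foxa2 values were -0.99 and -0.70 on the log2 scale, under 2-fold, and the bound with both was -1.11 in place of -1.75. The phosphate carrier gene Slc20a2 (signals of 1343, 927, 1515 and 1920.5) was 2.03-fold higher with both than with Nurr1. Slc26a6, an anion exchanger, had signals of 421, 279.9, 368 and 299 and was 2.03-fold lower with both. Slc12a8 had signals of 206, 146, 285 and 149 and was at least 2.24-fold lower with both factors than with Foxa2. The folds of Slc20a2, Slc26a6 and Slc12a8 were not followed gene by gene through the other processing settings, and those of Slc20a2 and Slc26a6 lay just over 2-fold. The chloride importer gene Slc12a2, with signals of 5993, 6016, 8849 and 5433, stayed within 2-fold of Control.

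Among the 30 genes grouped as mitochondrial carriers, 28 were detected on all arrays and 3 were at least 2-fold different, beside 16% of all named genes. Slc25a18, a mitochondrial glutamate carrier, was high on the Foxa2 array only, with signals of 1322, 932, 4251 and 1059. It was 2.94-fold higher with Foxa2, 1.55-fold lower with Nurr1 and 1.46-fold lower with both. Slc25a17, which by function is a carrier of cofactors in peroxisomes, had signals of 1286, 2864, 2090.5 and 5041 and was 2.16-fold, 1.45-fold and 3.60-fold higher with Nurr1, Foxa2 and both. Slc8b1, the sodium-calcium exchanger of mitochondria, had signals of 375, 334, 412 and 746 and was 2.43-fold higher with both than with Nurr1. The adenine nucleotide carrier gene Slc25a5 had signals of 31311, 27434, 26179 and 24626, at most 1.21-fold from Control. Slc25a33, a carrier of pyrimidine nucleotides, had signals of 956, 801, 1849 and 989 and was 1.75-fold higher with Foxa2.

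Of 19 genes of the nucleotide sugar family, 17 were detected on all arrays and 1 was at least 2-fold different (5.26%, beside 16% of all named genes). Slc35g1, a member without a settled substrate, was high on the Nurr1 array alone, at signals of 239, 637, 260.5 and 274, 3.12-fold above Control. With both factors it was 3.40-fold lower than with Nurr1. The other 16 genes detected on all arrays stayed between -0.66 and 0.74 on the log2 scale against Control over the 3 contrasts. Slc35b1, for example, had signals of 6271, 5400.0, 5551 and 7036, and Slc35c2 of 716, 889, 1312 and 1316. Slc35b4, a carrier of UDP-xylose and UDP-N-acetylglucosamine, was highest with both factors at signals of 1555, 1631, 1979.6 and 2868, 1.67-fold above Control. Slc35e4 stayed near the detection limit, with signals of 185, 238, 188 and 217. Of 5 monocarboxylate carrier genes 1 was detected on all arrays, Slc16a6, with signals of 266, 514, 299.9 and 335, 2.07-fold higher with Nurr1. That value was under 2-fold with no background taken off, in the authors' own values (both 0.82 in log2) and with an offset of 50 (0.94). Slc16a13 (signals of 190.3, 146, 225 and 194) was not detected with Nurr1, Slc16a3, the lactate exporter MCT4, with 164, 148, 152 and 185, was detected only on the array with both factors, and Slc16a9, with 158, 164, 178 and 163, only on the Foxa2 array. A second Slc16a6 probe gave a bound of 2.05-fold and another a bound of 1.35-fold.

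The pattern also takes in 4 genes that encode no carrier. Slc9a3r1 encodes the scaffold protein NHERF1, which tethers carriers and receptors beneath the plasma membrane. Its signals were 2316, 984, 1601 and 871, 2.59-fold lower with Nurr1 and 3.23-fold lower with both. The related scaffold gene Slc9a3r2 had signals of 367, 312, 665 and 490.0 and was 1.66-fold higher with Foxa2. Slc4a1ap, at 965, 1067, 959 and 924, stayed within 2-fold. Slc7a6os was detected on the Nurr1 array alone and no difference from Control was given.

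Nurr1 was added on 2 pairs of arrays that share no array: Nurr1 against Control, and both factors against Foxa2. Of 12 solute carrier genes at least 2-fold lower in the first pair, 6 were at least 2-fold lower in the second, namely Slc14a2, Slc1a3, Slc27a1, Slc30a10, Slc38a3 and Slc6a9, and 11 had the same sign. The exception, Slc41a3, was 1.28-fold higher. Of 7 at least 2-fold higher genes, 3 were so in both pairs, namely Slc25a17, Slc27a3 and Slc31a1, and all 7 had the same sign. The same sign was kept by 90.0% of all named lower genes and 81.2% of the higher ones. Over all named genes, 119 of 221 lower genes (53.8%) and 143 of 346 higher genes (41.3%) were again at least 2-fold different in the same direction. The shares of the solute carrier genes lay near these. In the second pair itself 7 were higher (4.02%, background 4.31%) and 11 were lower (6.32%, background 3.45%).

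Across the 133 solute carrier genes detected on all arrays, the log2 differences of these pairs had a Pearson correlation of 0.75, against 0.55 over 7127 named genes. Genes are not independent replicates, all 4 arrays were normalized together, and the difference between these correlations was not tested. For Foxa2 the corresponding pairs are Foxa2 against Control and both factors against Nurr1. In the latter 7 solute carrier genes were higher (4.02%, background 3.92%; 4 with the authors' values) and 3 were lower (1.72%, background 1.54%). The correlation for Foxa2 was 0.44 over the solute carrier genes and 0.41 over the named genes. Of 3 solute carrier genes at least 2-fold higher with Foxa2 against Control, 1 was so in both pairs, Slc41a2 (33.3%, background 33.7%). Of 3 lower genes, 1 was so in both, Slc1a1 (33.3%, background 34.2%). Both shares lay near the background. The same sign was kept by 2 of the 3 higher genes and by all 3 lower ones, beside 73.5% and 80.3% of all named genes. Slc1a1 was lower by 2.02-fold and 2.34-fold, the first of which fell just short in the settings given above.

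**Figure D4:**
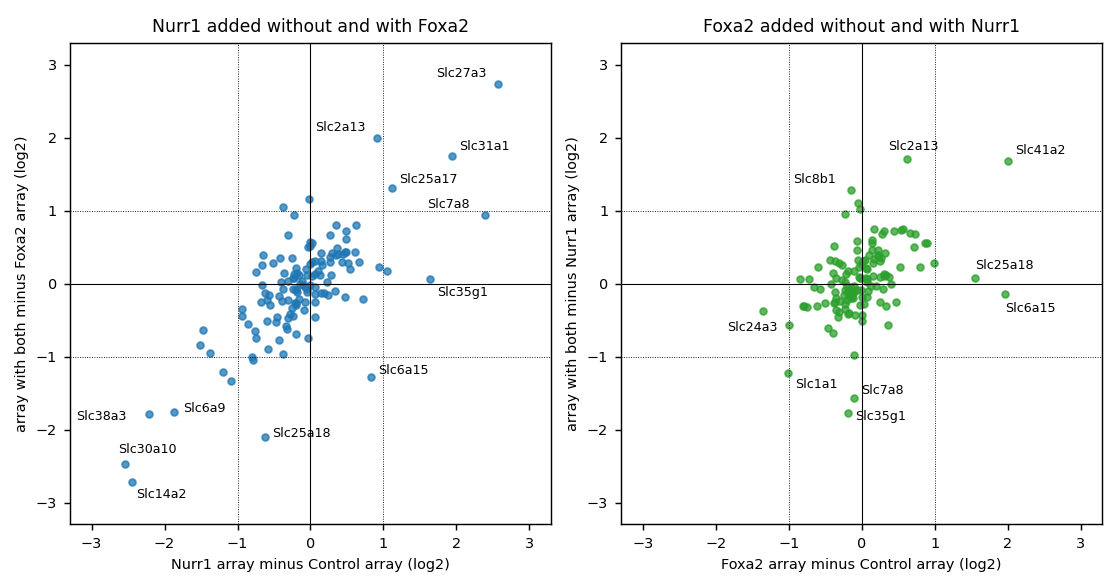
Log2 difference when a factor was added without the other factor (horizontal axis) and with it (vertical axis), for the 133 solute carrier genes detected on all 4 arrays, with Nurr1 on the left and Foxa2 on the right. Each point is a gene, the axes of a panel share no array, and dotted lines mark 2-fold; Slc27a3 and Slc31a1 lie at the upper right for Nurr1 and Slc14a2 and Slc30a10 at the lower left.

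A stricter reading asks that both arrays with a factor lie at least 2-fold from both arrays without it. For Nurr1, Slc27a3 and Slc31a1 met this on the higher side (1.15% of 174, background 1.04%), and Slc14a2, Slc27a1, Slc30a10, Slc38a3 and Slc6a9 on the lower side (2.87%, background 0.724%). For Foxa2, Slc41a2 met it on the higher side (0.575%, background 0.601%). On the lower side no solute carrier gene did so, where the background was 0.0557%. These groups of genes cross the carrier families, since the lower genes carry manganese, glutamine, glycine, fatty acids and urea.

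With both factors, Slc2a13 and Slc9a7 were at least 2-fold above each of the other 3 arrays (1.15%, background 1.92%), and Slc1a1 was at least 2-fold below each (0.575%, background 0.323%). The margin of Slc1a1 was narrow, at 2.02-fold below the Foxa2 array. It was under 2-fold in 4 of 7 alternative settings. Among the 133 genes detected on all arrays, the value with both factors exceeded the sum of the single log2 differences by at least 1 for 5 genes (3.76%, background 2.89%). These were Slc8b1 (1.43), Slc23a2 (1.19), Slc38a7 (1.16), Slc2a13 (1.09) and Slc20a2 (1.05). It fell short of the sum by at least 1 for 4 genes (3.01%, background 3.06%): Slc6a15 (-2.11), Slc35g1 (-1.58), Slc25a18 (-1.47) and Slc7a8 (-1.45). Both shares lay near those of all named genes. In the latter 4 genes, 1 array with a single factor stood high and the array with both lay closer to Control. By this measure Slc30a10 (0.06), Slc6a9 (0.11), Slc27a3 (0.17), Slc31a1 (-0.19) and Slc1a1 (-0.21) with both factors lay close to the sum.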

How the data were processed

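Cultured precursor cells of 4 groups were measured on Illumina mouse bead arrays, 1 array per group. The deposited table holds each probe's bead signal intensity, without background subtraction, and a detection p-value, per the file headers; the scanner software is not given in the sources used here. A second deposited table holds 13246 probes as log2 values, with an equal distribution on each array, and served as an alternative. Signals were background-corrected from the detection p-values and quantile-normalized (limma 3.58.1, neqc, offset 16) in R 4.3.3, and further steps used Python 3.11.15. The probe with the highest mean normalized value stood for a gene. A gene was counted where it differed by at least 2-fold and was detected (p under 0.01) on the brighter array; an undetected value was raised to the lowest detected one. The counting was tested on simulated data, where changes larger than 2-fold were planted in genes bright on the Control array. That did not cover changes near 2-fold or changes in dim genes. Gene names are those of the platform annotation, and all 174 matched RefSeq by Entrez ID. The genes, families and lists were chosen with earlier results of these data known. Named genes were the 10 highest and 10 lowest per comparison with Control among those at least 2-fold different, per family the brightest gene and the 4 of widest range, and those outside the other 3 arrays with both factors; further genes were named after their values were seen. Family names follow textbook substrates. The counts by departure from the sum and by both arrays of a factor were added after the data were seen. The 7 alternatives were no background correction, equal medians, the authors' log2 values, a detection p of 0.05, no detection filter, an offset of 50 and the mean of a gene's detected probes.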

Additional observations from a re-analysis of the deposited data

Results flagged for a closer look

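Slc6a15 and Slc8b1 stood on opposite sides when Nurr1 was added without and with Foxa2, on pairs of arrays that share no array. For Slc6a15 the log2 difference was 0.83 for Nurr1 against Control and -1.28 for both factors against Foxa2. For Slc8b1 the corresponding values were -0.38 and 1.05. Each value lay beyond 2 standard deviations between probes of a gene, and at least 1 of each pair was 2-fold or more. Slc6a15 and Slc8b1 have 1 probe each, so that spread comes from other genes. The spread also leaves out differences between cultures and virus preparations. For Slc8b1 both margins were narrow. The probe SD for Nurr1 against Control was 0.184 over all named genes, and 1.05 lay just over 2-fold. Genes higher with both factors than with Foxa2 numbered 5 in place of 7 in the authors' values and with no background taken off. Whether Slc8b1 stayed among them was not followed. With 1 array per group the difference between the pairs was not tested. How many of all named genes met the same rule was not counted. Of 346 named genes at least 2-fold higher with Nurr1 against Control, 62 had the opposite sign for both factors against Foxa2. Of 221 named genes at least 2-fold lower, 14 did.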

How the results depend on the processing

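The named values followed here were differences from Control for genes chosen by the naming rule. Folds of both factors against a single factor were not among them, nor were the values of Slc41a3, Slc1a4 and Slc26a6. No named value changed sign under the 7 alternatives. Of 63 named values 46 were at least 2-fold, and 38 of these stayed so with either the authors' values or no background correction, 42 with an offset of 50, 45 with equal medians and with the mean of probes, and 46 with a detection p of 0.05 and without a detection filter. The number of genes lower with Foxa2 was 1 both in the authors' values and with no background taken off, and the number higher with Foxa2 was 6 with equal medians. Genes higher with both factors than with Nurr1 numbered 4 with the authors' values. In the authors' values and with no background taken off, 5 genes were higher and 10 lower with Nurr1. In the same settings 8 were higher and 12 lower with both factors, and 5 were higher and 9 lower with both than with Foxa2. The gene below all other arrays with both factors, Slc1a1, dropped out (count 0) in the authors' values, with no background taken off, with an offset of 50 and with the mean of probes. Without a detection filter, 11 genes were higher with both factors than with Foxa2, 15 departed from the sum by at least 1, 4 were above on both Nurr1 arrays and 5 were higher with Nurr1 without and with Foxa2; that setting admits undetected values, and the cause of the other shifts was not tested. With equal medians the median of all genes with a value stood at -0.12 for both factors against Control, beside -0.09 in the values reported. No paired analysis was possible because each group holds 1 array. Signals near the detection limit bound how far a difference can be measured, and the number of arrays limits the precision.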
